A study of Mus musculus with 4 samples.

Results

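The transcripts described here encode the proteins that build the primary cilium, move cargo along it and organise the centrosome at its base. They were taken by a rule on gene symbols, set with earlier results of these data known: the numbered intraflagellar transport (Ift), Bardet-Biedl (Bbs), nephronophthisis (Nphp) and centrosomal protein (Cep) genes, together with Tctn1 to Tctn3, B9d1, B9d2, Mks1, Ttc8, Ttc21b, Rpgrip1l, Ofd1, Kiz, Pcnt and Pcm1. This gave 73 of the 53379 genes in the deposited table. The source was the ventricular-subventricular zone (V-SVZ), a neurogenic tissue lining the lateral ventricles, taken from CD1 wild types on postnatal day 7 or 8, and RNA was immunoprecipitated from its lysate. An antibody against Cpeb4, a protein that binds cytoplasmic polyadenylation elements in mRNA, was set against control IgG. Each of 2 experiments gave 1 Cpeb4 and 1 IgG library, so each antibody has 2 libraries, numbered here by experiment. The labels name no separate animals for the experiments, so each p-value reflects only how far these libraries spread, which may be technical, and a lysate of whole tissue does not tell fewer cells of a type from less RNA per cell.

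The primary cilium is a single microtubule-based projection that grows from the older centriole of a cell and receives signals such as Hedgehog. Trains of the IFT-B and IFT-A protein complexes carry cargo along it, with IFT-B linked to outward and IFT-A to return transport. The BBSome, a coat of BBS proteins, moves membrane proteins in and out of the cilium, and the transition zone at the base acts as a gate. In the V-SVZ, neural stem cells carry a primary cilium into the ventricle and ependymal cells carry many motile cilia built with much of the same machinery.

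The libraries held 35037171 and 24483742 reads on genes for Cpeb4 and 24094241 and 22486721 for IgG, worked out from the spacing of the deposited FPKM values. FPKM stands for fragments per kilobase of gene and per unit of library depth. In the deposited values this depth followed the authors' size factors, by which their comparison divided the reads, and not the read totals. These factors were 1.1831 and 0.7598 for Cpeb4 and 1.1086 and 1.0361 for IgG. This is called the deposited scaling below. Each of the 73 transcripts passed the filter on low values, which asked for 2 or more libraries with FPKM of 1 or more, and each had 73 to 6402 reads in every library. Their median level was 8.48 FPKM in Cpeb4 and 7.27 FPKM in IgG precipitates, against 8.72 and 6.87 FPKM over the 15745 genes tested. Markers of the tissue were present in each library. Dcx, a neuroblast microtubule protein, was at 64.5 and 78.2 FPKM in Cpeb4 and 23.6 and 23.2 FPKM in IgG precipitates, and Foxj1, the master regulator of motile cilia in ependymal cells, was at 21.1 and 17.5 against 16.3 and 19.0 FPKM. Both are given for presence only. Unlike Foxj1, 7 of the 9 ependymal markers tested had a negative log2 fold change, and Dcx had the largest of the 6 neuroblast markers. The marker lists are described below.

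The comparison asked which of these transcripts were enriched with Cpeb4 over control IgG. The BBSome subunit Ttc8 (BBS8), the centriole protein Cep76, the centrosome linker protein Cep68, the appendage protein Cep170 and Cep126 were at least 2-fold higher in Cpeb4 precipitates on the FPKM + 1 scale, at 2.88, 2.70, 2.38, 2.14 and 2.10-fold. The IFT-B subunit Ift172 was lower, at 0.571 of its IgG level on that scale. Of the 73 transcripts, 27 were called higher and 4 lower by limma, at a threshold of 0.05 on its adjusted p, and 42 were not called. Over all genes tested, 38.8% were called higher and 11.6% lower, so the transcripts as a set stood close to the background in the higher direction and under it in the lower. The 5 transcripts called higher by at least 2-fold compare with 10.8% of all genes tested. Their median log2 fold change was 0.20, against 0.19 over all genes tested, with a range of -0.81 to 1.52. The 2 antibodies' libraries did not overlap for 41 transcripts that were higher in Cpeb4 and 20 that were lower, against 53.2% and 22.7% of all genes tested.

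The counts depended on how the libraries were scaled, and they also changed when a library was left out. Leaving 1 out puts a single library on that side, which is assumed to vary like the rest, so the spread comes from the other antibody's pair alone. The Cpeb4 libraries differed from each other more than the IgG libraries did, with a chi-square of 20.2 and 4.28 when divided by its degrees of freedom. In all, 40 called genes were followed one by one, including some from the list of other cilium and centrosome genes described below. Some of the 40 lost their call without IgG replicate 1 or without IgG replicate 2, yet none of their log2 fold changes moved by more than 0.08. Calls given below as lost without an IgG library are of this kind. Without IgG replicate 1, 15 were called higher and 1 lower, against 26.5% and 5.98% of all genes tested. Without IgG replicate 2, 13 were called higher and 1 lower, against 25.3% and 5.51%. Without Cpeb4 replicate 1, 33 were called higher and 10 lower, against 41.5% and 15.9%, and without Cpeb4 replicate 2, 28 and 4, against 41.4% and 11.9%. With libraries scaled to their read totals, 10 were called higher and 32 lower, against 17.5% and 42.4% of all genes tested, and the median log2 fold change of all genes tested was -0.24, against 0.19 with the deposited scaling. Of the 31 called transcripts, 11 kept their call under all 14 alternatives run, and these carry the description that follows: Ttc8, Bbs4, Ift80, Rpgrip1l, Cep76, Cep57, Cep68, Cep170, Cep126 and Cep41 were higher and Ift172 was lower. The same was true of 15.6% of all genes tested in the higher and 2.33% in the lower direction, so these 10 and 1 of 73 were not more than the background.

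**Figure D1:**
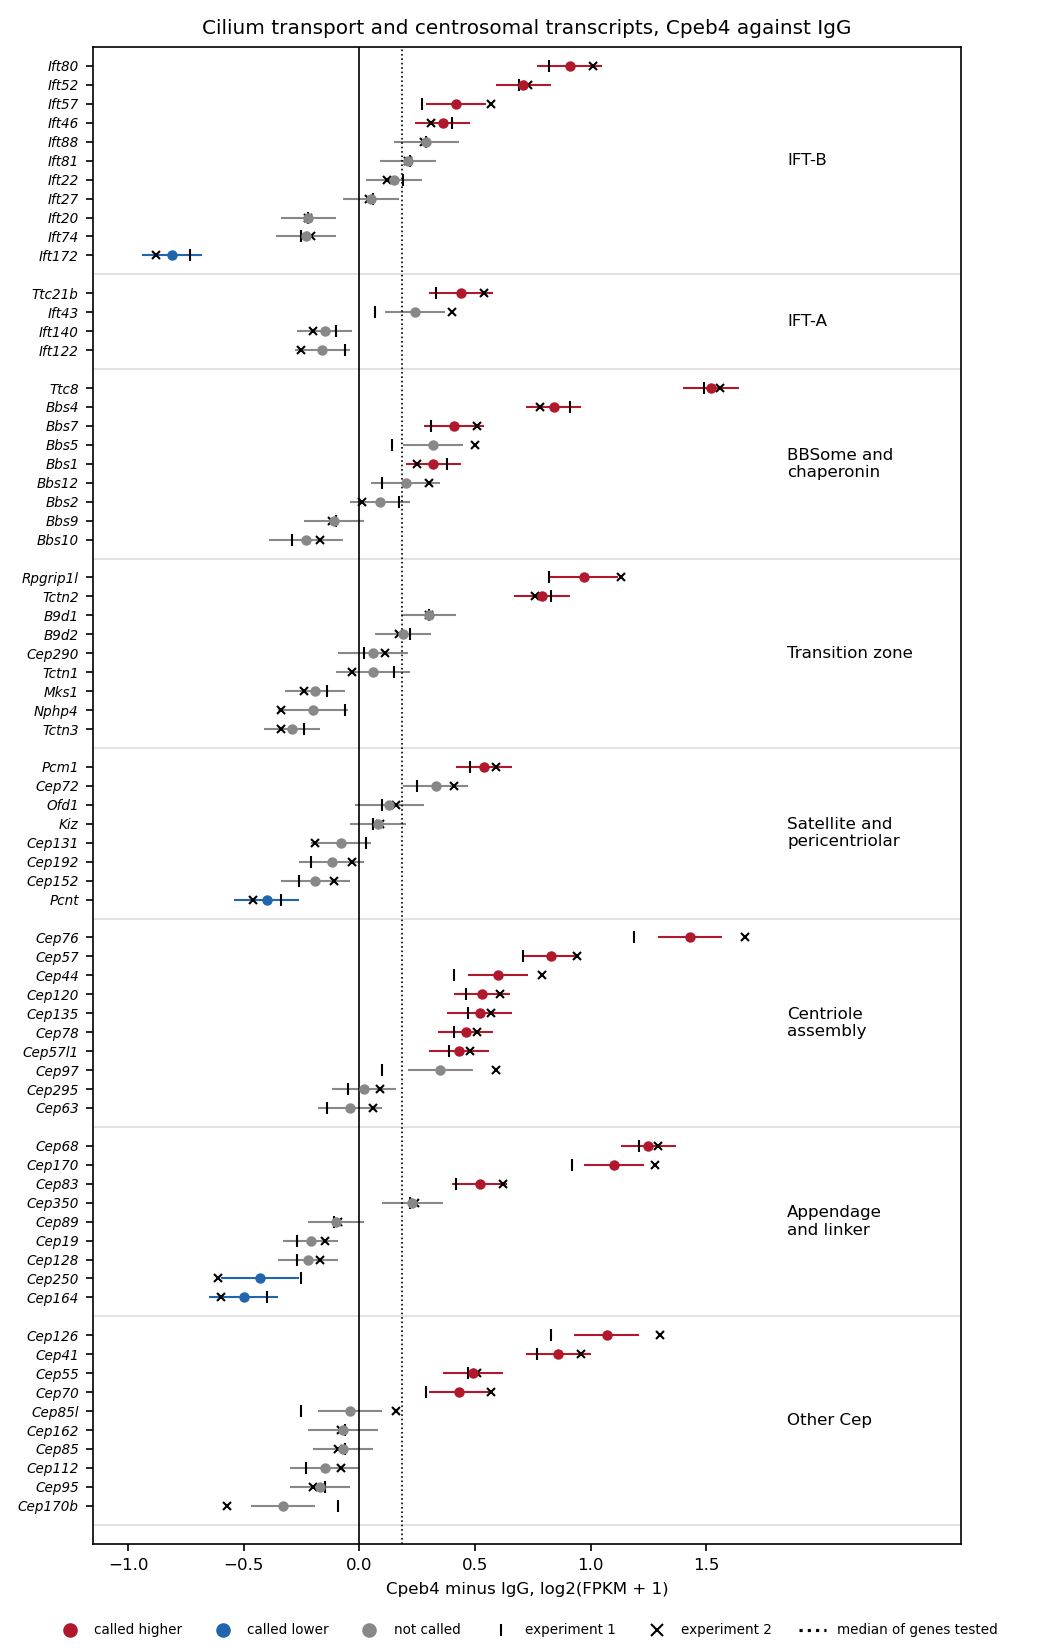
Differences between Cpeb4 and IgG libraries in log2(FPKM + 1) for 70 of the 73 transcripts, by role; points give the estimate, horizontal bars its standard error (limma), ticks and crosses the difference within experiments 1 and 2, and the dotted line the median of all genes tested (0.19). Within most roles the values spread to both sides of the dotted line, from -0.81 for Ift172 to 1.52 for Ttc8.

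Subunits of IFT-B, the outward transport complex, differed among themselves. Of 11 subunits, 4 were higher (Ift80, Ift52, Ift57 and Ift46), 1 was lower (Ift172) and 6 were not called, with a median log2 fold change of 0.21. These calls were 36.4% higher and 9.09% lower, close to the 38.8% and 11.6% of all genes tested. The counts of the roles that follow stand beside the same 2 shares. Differences between subunits were not tested. Ift172, a long peripheral subunit, was at 6.07 and 5.43 FPKM in Cpeb4 precipitates, against 10.7 and 10.8 FPKM in IgG. Each Cpeb4 library was below each IgG library (log2 fold change -0.81, SE 0.13, limma adjusted p = 6.23e-05). Ift80, another peripheral subunit, was at 5.56 and 6.48 FPKM in Cpeb4 precipitates and 2.73 and 2.72 FPKM in IgG. Its Cpeb4 libraries were both above the IgG libraries, which were nearly equal (log2 fold change 0.91, SE 0.14, limma adjusted p = 4.08e-05). The genes lie on chromosome 5 (Ift172, 31253279 to 31291391) and chromosome 3 (Ift80, 68892499 to 69004680, GRCm38).

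Ift52, a core subunit, was at 26.2 and 26.8 against 15.8 and 15.7 FPKM (log2 0.71, SE 0.12, limma adjusted p = 0.000131), but not with read totals as the scaling (log2 0.22, limma adjusted p = 0.168). Ift57 was at 18.5 and 20.5 against 15.2 and 13.5 FPKM (log2 0.42, limma adjusted p = 0.0117), and Ift46 at 11.7 and 10.8 against 8.63 and 8.53 FPKM (log2 0.36, limma adjusted p = 0.0243). Without IgG replicate 1 or 2, Ift57 was at log2 0.50 and 0.34 (limma adjusted p = 0.0704 and 0.207) and Ift46 at 0.36 and 0.35 (0.162 and 0.182). Both values turned to log2 -0.07 and -0.11 with libraries scaled to read totals. Ift88, the subunit disrupted in the classical cilium mutant mouse, was at 3.92 and 4.18 against 3.02 and 3.26 FPKM and was not called (log2 0.29, SE 0.14, limma adjusted p = 0.0953). Ift20, which also acts at the Golgi, was at 18.3 and 17.7 against 21.5 and 20.8 FPKM and was not called with the deposited scaling (log2 -0.22, limma adjusted p = 0.143), but was called lower with libraries scaled to read totals, by trimmed mean over the genes tested, or centred on the median (log2 -0.71 to -0.44). Ift27, a small GTPase of the complex, was at 24.7 and 22.0 against 23.7 and 21.3 FPKM, with overlapping groups (log2 0.05, limma adjusted p = 0.767), and was called lower with libraries scaled to read totals (log2 -0.45, limma adjusted p = 0.00392). Ift81, Ift22 and Ift74 lay between log2 -0.23 and 0.21 and were not called, and Ift74 was called lower under the same 3 scalings as Ift20. Ift22 was called lower under 1 of the 5 scalings of the libraries.

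Of the 4 IFT-A transcripts, 1 was higher and 3 were not called. Ttc21b (IFT139) was at 3.80 and 4.61 FPKM in Cpeb4 precipitates and 2.82 and 2.85 FPKM in IgG (log2 fold change 0.44, SE 0.14, limma adjusted p = 0.017). This call was lost without Cpeb4 replicate 2 (limma adjusted p = 0.054), without IgG replicate 1 (0.124) or without IgG replicate 2 (0.116). The core subunit Ift140 was at 8.48 and 8.49 against 9.16 and 9.88 FPKM, and Ift122 at 16.9 and 14.2 against 17.6 and 17.1 FPKM. Neither was called with the deposited scaling (log2 -0.15 and -0.16, limma adjusted p = 0.344 and 0.311), and both were called lower with read totals (log2 -0.61 and -0.64), with trimmed means over the genes tested (-0.36 and -0.38), with median centring (-0.35 and -0.37) and with the trend on length and level removed (-0.58 and -0.65). Ift43 was not called, at log2 0.24.

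Among the 9 BBSome and BBS chaperonin transcripts, 4 were higher and 5 were not called. Ttc8 (BBS8; chromosome 12, 98920537 to 98983250) had the largest difference of the 73. It was at 47.0 and 50.7 FPKM in Cpeb4 precipitates, against 16.1 and 16.5 FPKM in IgG, and was the most abundant of the 73 transcripts in Cpeb4 precipitates. Its difference was 1.52 on the log2 scale (SE 0.12, limma adjusted p = 1.01e-07), 1.49 within experiment 1 and 1.56 within experiment 2. Bbs4, which links the BBSome to centriolar satellites, was at 17.9 and 16.3 FPKM in Cpeb4 precipitates and 9.06 and 9.10 FPKM in IgG. It was nearly as even between experiments, at 0.91 and 0.78 (log2 fold change 0.84, SE 0.12, limma adjusted p = 3.16e-05).

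The other BBSome subunits moved less. Bbs7 was at 10.4 and 11.2 against 8.18 and 7.57 FPKM (log2 0.41, limma adjusted p = 0.0134), and Bbs1, which contacts the GTPase Arl6 at the membrane, at 16.1 and 15 against 12.1 and 12.5 FPKM (log2 0.32, limma adjusted p = 0.0426). Both calls were lost without IgG replicate 1 (limma adjusted p = 0.0857 and 0.256) and without IgG replicate 2 (0.173 and 0.207). Both also turned to log2 -0.06 and -0.17 with libraries scaled to read totals. Bbs5 lay just outside the threshold at 9.72 and 12.6 against 8.73 and 8.56 FPKM (log2 0.32, limma adjusted p = 0.0527). It was called higher with trimmed means over every gene with reads (log2 0.35, limma adjusted p = 0.035), and lay at log2 -0.15 with libraries scaled to read totals. Bbs2 was at 9.35 and 8.80 against 8.21 and 8.75 FPKM and was not called (log2 0.09, limma adjusted p = 0.592; -0.38 with libraries scaled to read totals). Bbs9 and the chaperonin-like Bbs12 and Bbs10 were not called, at log2 -0.11, 0.20 and -0.23. Bbs10 was the least abundant of the 73 in Cpeb4 precipitates at 1.2 and 1.21 FPKM, against 1.68 and 1.48 FPKM in IgG.

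At the transition zone, 3 of 11 transcripts were higher, none was lower and 8 were not called, with a median log2 fold change of 0.11. Rpgrip1l, a scaffold of the gate whose gene is mutated in human Joubert and Meckel syndromes, was at 4.31 and 5.11 FPKM in Cpeb4 precipitates, against 2.01 and 1.80 FPKM in IgG. Both Cpeb4 libraries were above both IgG libraries (log2 fold change 0.97, SE 0.15, limma adjusted p = 4.27e-05). Tctn2, a tectonic of the ciliary membrane gate, was at 25.5 and 23.4 against 13.9 and 13.4 FPKM (log2 0.79, SE 0.12, limma adjusted p = 4.78e-05). With libraries scaled to read totals Tctn2 was at log2 0.31 and no longer called (limma adjusted p = 0.0523).

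Of the tectonic paralogs, Tctn1 was at log2 0.06 and Tctn3 at -0.29. Neither was called with the deposited scaling, Tctn3 was called lower under 3 of the 5 scalings, and their difference from Tctn2 was not tested. B9d1, a partner of Mks1 in the gate and the most abundant of the 11, was at 35.1 and 32.4 against 28.4 and 26.2 FPKM. It lay just outside the threshold (log2 0.30, limma adjusted p = 0.0521). B9d1 was called higher with trimmed means over every gene with reads (log2 0.33, limma adjusted p = 0.0398) and without the replicate block (0.0488). It lay at log2 0.24 and 0.35 without Cpeb4 replicate 1 and 2, and at -0.20 with libraries scaled to read totals. Cep290, the long protein that bridges microtubules and membrane in the gate, was at 2.57 and 2.88 against 2.53 and 2.59 FPKM, with overlapping groups (log2 0.06, SE 0.15, limma adjusted p = 0.749). B9d2, Mks1 and Nphp4 were not called, at log2 -0.20 to 0.19, and Mks1 and Nphp4 were called lower under the same 3 scalings as Tctn3.

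**Figure D2:**
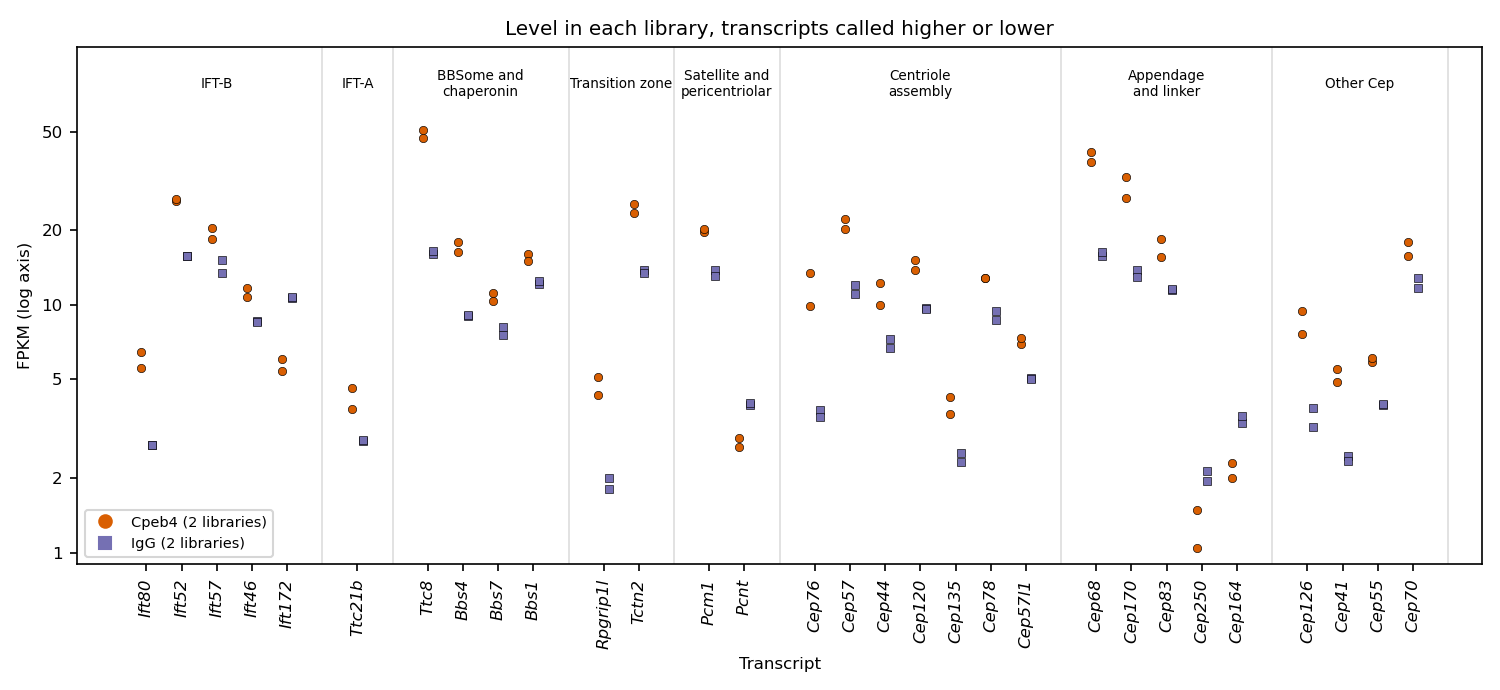
FPKM (log axis) in each of the 2 Cpeb4 libraries (circles) and 2 IgG libraries (squares) for 30 of the 31 transcripts called higher or lower, by role. Cpeb4 and IgG points do not overlap for any of the 30, which were drawn because they were called, so little else was possible. Over all genes tested, 53.2% did not overlap with Cpeb4 higher and 22.7% with Cpeb4 lower. Ttc8 at 47.0 and 50.7 FPKM and Cep68 at 37.6 and 41.4 FPKM stand highest in Cpeb4.

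Of 8 transcripts for centriolar satellite and pericentriolar proteins, 1 was higher, 1 was lower and 6 were not called, with a range of -0.40 to 0.54. Pcm1, the scaffold of centriolar satellites, was at 19.7 and 20.2 FPKM in Cpeb4 precipitates and 13.8 and 13.1 FPKM in IgG (log2 fold change 0.54, SE 0.12, limma adjusted p = 0.00163). Pcm1 was no longer called with read totals (log2 0.05, limma adjusted p = 0.78) or without IgG replicate 2 (0.0668), and the value turned to -0.05 with the trend on gene length and level removed. Pcnt, the pericentrin scaffold that anchors microtubule nucleation, was at 2.91 and 2.66 FPKM in Cpeb4 precipitates and 3.95 and 4.03 FPKM in IgG. It was lower (log2 -0.40, SE 0.14, limma adjusted p = 0.0257) under each scaling, but not called without IgG replicate 1 (0.128) or IgG replicate 2 (0.15). Cep192 and Cep152, which recruit the kinase Plk4 to start centriole duplication, were at 3.11 and 3.82 against 3.74 and 3.93 FPKM and at 1.71 and 1.93 against 2.24 and 2.17 FPKM. Neither was called (log2 -0.12 and -0.19, limma adjusted p = 0.503 and 0.337), while scaling to read totals called both lower (log2 -0.53 each). Cep72, Ofd1, Kiz and Cep131 were not called, at log2 -0.08 to 0.33. Under 1 of the 5 scalings each, Cep72 was called higher, and Kiz and Cep131 lower.

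Transcripts for centriole assembly and length control had a median log2 fold change of 0.49. Of 10, 7 were higher, none was lower and 3 were not called, beside 38.8% and 11.6% of all genes tested, and 2 of the 7 were higher under all 5 scalings. The roles were assigned with results known and were not tested against each other. Some placements could have been made otherwise. Cep192 and Cep152, which act in centriole duplication and were not called, were counted with the pericentriolar proteins. The pericentriolar Cep57 and its paralog Cep57l1, both higher, were counted here, so the count for this role depends on such choices. Cep76, which restrains centriole reduplication, was at 9.91 and 13.4 FPKM in Cpeb4 precipitates, against 3.78 and 3.53 FPKM in IgG. The Cpeb4 libraries differed from each other by more than the IgG libraries did, and both stood above them (log2 fold change 1.43, SE 0.14, limma adjusted p = 6.06e-07). Cep57, a pericentriolar protein needed for centriole engagement, was at 20.3 and 22.2 against 12 and 11.1 FPKM (log2 0.83, SE 0.12, limma adjusted p = 4.37e-05). The annotated Cep57 gene overlaps Fam76b and Mtmr2, and strand is not kept by the cDNA kit, which leaves reads in the overlap uncertain.

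Cep44, Cep120 and Cep135, which act in centriole maturation, elongation and cartwheel assembly, were higher with the deposited scaling at log2 0.60, 0.53 and 0.52 (limma adjusted p = 0.00139, 0.00186 and 0.00586). Cep44 was at 9.95 and 12.3 against 7.26 and 6.69 FPKM. Cep120 was at 13.8 and 15.2 against 9.72 and 9.61 FPKM, and Cep135 at 3.62 and 4.24 against 2.33 and 2.53 FPKM. With libraries scaled to read totals these 3 were at log2 0.14, 0.06 and 0.13 and not called. With the trend on gene length and level removed, Cep120 and Cep135 were at log2 0.09 and 0.30 and not called, while Cep44 kept its call at 0.40. Cep44 and Cep120 also lost their call without IgG replicate 2 (0.0612 and 0.0568) and Cep135 without IgG replicate 1 (0.0857). Cep78 and Cep57l1, the paralog of Cep57, were at log2 0.46 and 0.43 (limma adjusted p = 0.00508 and 0.0108); both calls were lost without IgG replicate 1 (0.0539 and 0.0968) and without IgG replicate 2 (0.118 and 0.108), and both stood at log2 -0.01 with libraries scaled to read totals. Cep97, Cep295 and Cep63 were not called, at log2 0.35, 0.02 and -0.04. Under 1 of the 5 scalings each, Cep97 was called higher, and Cep295 and Cep63 lower.

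Transcripts for the appendages of the older centriole and for the linker between centrioles held both some of the largest higher values and 2 of the 4 lower calls. Cep68, a linker protein removed before mitosis, was at 37.6 and 41.4 FPKM in Cpeb4 precipitates and 15.7 and 16.4 FPKM in IgG (chromosome 11, 20227037 to 20249424; log2 fold change 1.25, SE 0.12, limma adjusted p = 5.31e-07). Cep250 (C-Nap1), the linker protein at the base of the centrioles, was at 1.49 and 1.04 against 1.95 and 2.13 FPKM and was lower (log2 -0.43, SE 0.17, limma adjusted p = 0.0406). The Cep250 call was lost without Cpeb4 replicate 2 (0.139), IgG replicate 1 (0.122) or IgG replicate 2 (0.201), and with a pseudocount of 0.1 (0.0529).

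Cep170, a subdistal appendage protein, was at 27.0 and 32.9 FPKM in Cpeb4 precipitates and 13.8 and 13.0 FPKM in IgG (chromosome 1, 176729072 to 176813979; log2 fold change 1.1, SE 0.13, limma adjusted p = 3.39e-06). Its paralog Cep170b, at 29.4 and 23.6 against 31.5 and 35.5 FPKM, lay on the other side of 0 and just outside the threshold (log2 -0.33, SE 0.14, limma adjusted p = 0.0509). The difference between the paralogs was not tested. Cep170b was called lower in several other fits, among them without Cpeb4 replicate 1 (log2 -0.49, limma adjusted p = 0.00132) and with libraries scaled to read totals (-0.83).

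Of the distal appendage proteins, which dock the centriole to the membrane, Cep83 and Cep164 were called in opposite directions. Cep83 was at 15.6 and 18.4 FPKM in Cpeb4 precipitates and 11.5 and 11.6 FPKM in IgG (log2 0.52, limma adjusted p = 0.00248), and Cep164 at 2.29 and 2.0 FPKM, against 3.34 and 3.56 FPKM (log2 -0.50, limma adjusted p = 0.00954). Cep164 was lower under each scaling, while Cep83 was called with the deposited scaling and with trimmed means over every gene with reads, and lay at log2 0.04 with read totals. With the trend on gene length and level removed, Cep83 lay at log2 0.08 and was not called, and Cep164 stayed lower at -0.71. Without IgG replicate 1 or 2, Cep83 was at log2 0.51 and 0.53 (limma adjusted p = 0.0716 and 0.0654) and Cep164 at -0.54 and -0.47 (0.0596 and 0.097), about as large as before but not called. Cep350, Cep89, Cep19 and Cep128 were not called, at log2 -0.22 to 0.23, and the last 3 were called lower under 3 of the 5 scalings.

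The remaining 11 Cep transcripts, which have no common role, included 4 that were higher and 7 that were not called. Cep126, which binds microtubules at the ciliary base, was at 7.62 and 9.42 FPKM in Cpeb4 precipitates and 3.83 and 3.22 FPKM in IgG (log2 fold change 1.07, SE 0.14, limma adjusted p = 1.26e-05). Cep41, needed for tubulin glutamylation in the cilium, was at 4.87 and 5.51 against 2.45 and 2.34 FPKM (log2 0.86, SE 0.14, limma adjusted p = 8.5e-05). Cep55, which acts in abscission at the end of cell division, was at 5.88 and 6.08 against 3.95 and 3.98 FPKM (log2 0.49, limma adjusted p = 0.00548), and Cep70, which binds gamma-tubulin, at 15.8 and 17.9 against 12.8 and 11.7 FPKM (log2 0.43, limma adjusted p = 0.00985). Both of these calls were lost without IgG replicate 1 (0.0684 and 0.0778) and without IgG replicate 2 (0.0667 and 0.167), and with libraries scaled to read totals they lay at log2 0.06 and -0.05. Besides Cep170b, Cep85l, Cep162, Cep85, Cep112 and Cep95 were not called, at log2 -0.17 to -0.04, and Cep95 was called lower under 3 of the 5 scalings. Cep85l, Cep162, Cep85 and Cep112 were each called lower under 1 of the 5.

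Between the experiments, 68 of the 73 differences had the same sign, 45 positive and 23 negative. The same share over all genes tested was not counted. Groups that do not overlap must have the same sign, and 53.2% of all genes tested did not overlap with Cpeb4 higher and 22.7% with Cpeb4 lower. Among the 27 higher calls, 23 had the larger difference in experiment 2, as did 75.7% of all genes called higher. The authors' deposited table put 21 of the 73 higher and 4 lower at its own adjusted p, or 28.8% and 5.48%, against 21.7% and 4.93% of the 22709 genes with an adjusted p there. Those genes include many under the FPKM filter, and their median log2 fold change in the authors' deposited table was 0.04, against 0.20 for the 73. All 21 were also called higher by limma. The limma calls absent from the authors' deposited table were Ift57, Ift46, Bbs7, Bbs1, Cep57l1 and Cep70, with adjusted p of 0.0561 to 0.123 in the authors' deposited table.

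Across these libraries longer genes tended to have larger differences between Cpeb4 and IgG precipitates, while among the 73 the correlation was near 0. Over 15633 genes tested, the log2 fold change had a Spearman correlation of 0.30 with the gene length implied by the FPKM; over the 73 it was -0.09. With mean level the values were 0.32 and 0.29. The points are genes that share the same 4 libraries and are not independent. The median length of the 73 was 3.92 kb, with a range of 0.845 to 13.4 kb, against a median of 3.08 kb over all genes tested, and the 4 lower calls, Ift172, Cep164, Cep250 and Pcnt, had lengths of 5.45, 6.15, 8.04 and 9.42 kb. With a trend on length and level removed, 13 of the 73 were called higher and 21 lower, against 23.9% and 25.7% of all genes tested.

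**Figure D3:**
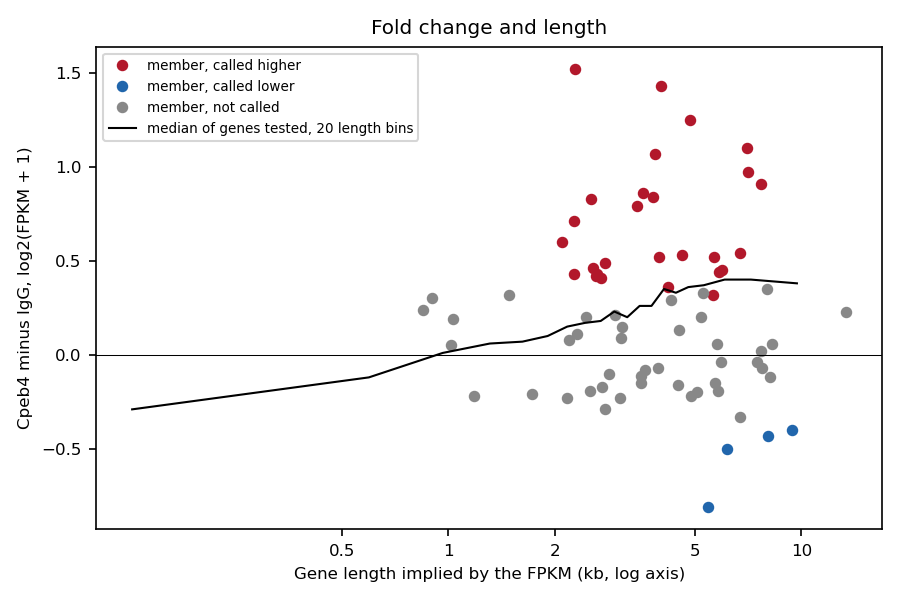
Log2 fold change of each of the 73 transcripts against the gene length implied by the FPKM (kb, log axis), coloured by call; the line gives the median of all genes tested in 20 bins of length. The line climbs from -0.29 in the shortest bin to 0.38 in the longest, while the 73 show no such course and the 4 lower calls lie at 5.45 to 9.42 kb.

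Other genes of the same pathways were listed by function. Of 87 listed, 86 were in the table and 85 were tested; 36 were higher, 4 lower and 45 not called, with a median log2 fold change of 0.18. Those called were 42.4% higher and 4.71% lower, beside 38.8% and 11.6% of all genes tested. The largest values belonged to Nedd1, which brings gamma-tubulin to the centrosome, at 16.4 and 19.0 FPKM in Cpeb4 precipitates and 5.0 and 4.41 FPKM in IgG (log2 1.71, SE 0.13, limma adjusted p = 8.3e-08). Poc1b, a centriole stability protein, was at 20.2 and 19.8 against 6.65 and 6.73 FPKM (log2 1.45). The small BBSome subunit Bbip1 was at 35.6 and 46.4 against 15.4 and 13.5 FPKM (log2 1.43). Arl13b, a GTPase of the ciliary membrane, and Fgfr1op (FOP), a satellite and centriole protein, were at log2 1.34 and 1.31.

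These 5 kept their call under all 14 alternatives, as did 8 more of the 36, so 13 of 85 did, beside 15.6% of all genes tested. The BBSome thus held 3 transcripts whose higher call was kept throughout, Ttc8, Bbs4 and Bbip1. The annotated Bbip1 gene overlaps Pdcd4 and Shoc2, and without strand the reads in the overlap are uncertain. In the same way Poc1b overlaps Galnt4, Arl13b overlaps Stx19 and Nedd1 overlaps Gm24241. Bbs7 and Bbs1 were called higher but lost their call under some alternatives, and Bbs2, Bbs5 and Bbs9 were not called. The 4 lower genes were the appendage proteins Odf2 (log2 -0.54, limma adjusted p = 0.00144) and Cntrl (-0.53, 0.00423), the transition zone protein Cc2d2a (-0.38, 0.0255) and the scaffold Akap9 (-0.32, 0.0413). None of these 4 kept its call throughout. Odf2 lost it without IgG replicate 2 (limma adjusted p = 0.0667), Cntrl without IgG replicate 1 (0.0658), and Cc2d2a and Akap9 without IgG replicate 1 (0.119 and 0.235) or IgG replicate 2 (0.185 and 0.207).

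**Figure D4:**
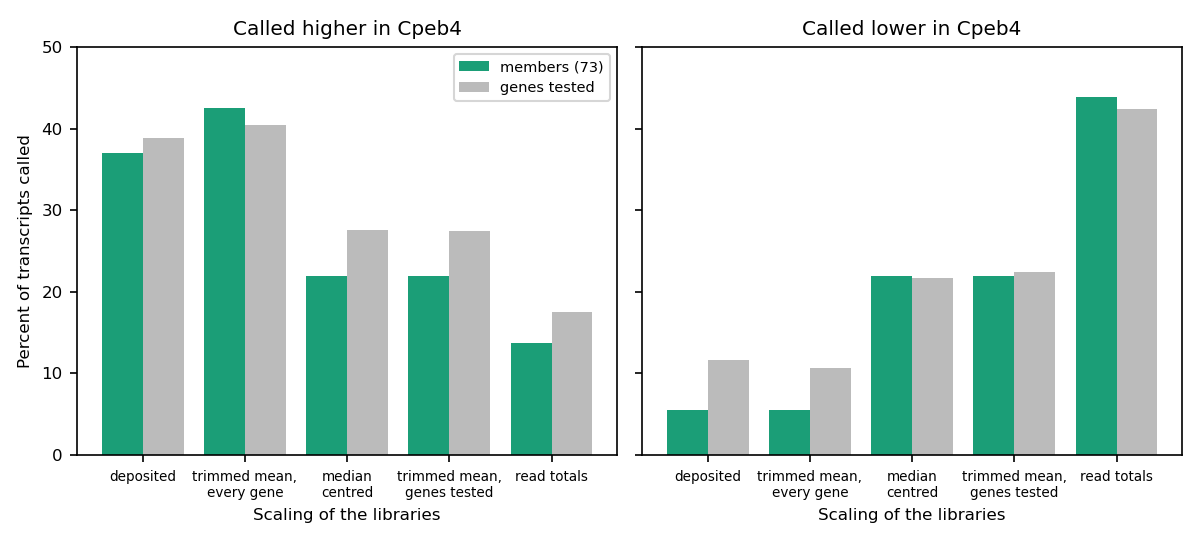
Percent of transcripts called higher (left) and lower (right) in Cpeb4 precipitates under 5 scalings of the libraries, for the 73 transcripts (green) and all genes tested (grey). Both sets shift together: with read totals 10 of the 73 are called higher and 32 lower, beside 17.5% and 42.4% of all genes tested.

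Under the remaining alternatives the shares lay near or below the background in the higher direction, except with no filter on low values. Trimmed means over the genes tested gave 16 higher and 16 lower, against 27.4% and 22.4% of all genes tested, and centring on the median gave 16 and 16, against 27.6% and 21.7%. Trimmed means over every gene with reads, an alternative chosen after seeing the data, gave 31 and 4, against 40.5% and 10.6%. A pseudocount of 0.1 gave 27 and 3, against 38.0% and 10.9%. Limma-voom on the recovered reads gave 30 and 6, against 41.2% and 11.8%, and the fit without the replicate block 29 and 4, against 38.2% and 10.9%. With no filter on low values 46911 genes were tested and 14 of the 73 were called higher and 1 lower, against 8.35% and 1.87%. The median log2 fold change there was 0.20 for the 73 and -0.06 for all genes tested, and the filter leaves 15745 of those genes, all 73 among them.

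Under all 5 scalings 10 of the 73 were higher and 4 lower, against 17.5% and 10.6% of all genes tested. Among cell type markers, counts are given beside 38.8% of all genes tested called higher and 11.6% lower. Of 10 ependymal markers, 9 were tested, 4 were lower and none was higher, and their summed level was 80.7 and 69.9 FPKM in Cpeb4 precipitates, against 96.7 and 97.3 FPKM in IgG. Of 6 neuroblast markers 4 were higher, with sums of 428 and 435 against 302 and 305 FPKM, and of 6 stem and progenitor markers 4 were higher and 1 lower, with sums of 657 and 686 against 391 and 380 FPKM. Slc1a3, a glutamate transporter of astrocytes and stem cells, made up most of these sums, and the other 5 markers summed to 189 and 186 against 145 and 143 FPKM. Of 4 proliferation markers 1 was higher and 1 lower, with sums of 55.8 and 63.4 against 52.1 and 51.8 FPKM. Under all 5 scalings 3 neuroblast, 2 stem and progenitor and 0 proliferation markers were higher, and 3 ependymal, 1 stem and progenitor and 1 proliferation marker were lower. No marker was at 0 in all libraries, and the part of cell type in the values of the 73 was not tested.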

How the data were processed

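Per the labels, a MAGNA RIP kit gave the RNA, SMART-Seq v4 the cDNA and Nextera XT the sequencing libraries. The submitters' processing notes list, without roles or settings, the build mm10 and the tools DESeq2 1.26.0, HTSeq 0.6.1p2, STAR 2.6.0c, Trim Galore 0.5.0 and FastQC 0.11.5. The deposited table holds FPKM per library and, per the file headers, the authors' comparison: a mean level (a signal, reads over size factors), the log2 fold change and its error, the test score, and raw and adjusted p-values. 0 columns belonged to other samples.

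Whole reads were recovered from the FPKM steps joined to the authors' mean level, where 100% came within 0.01 of a whole read; a simulated table of 25698 genes also gave back 100%. Reads carry no molecular identifiers. Genes with 2 or more libraries at FPKM 1 or more (15745) entered limma 3.58.1 (R 4.3.3) as log2(FPKM + 1), with a trended prior, antibody as effect and experiment as block, two-sided, Benjamini-Hochberg over all genes tested. A fold change on this scale understates low genes. The block was kept because the titles number experiments across antibodies and a batch is part of the deposited table's name; the correlation between same-numbered libraries, as deviations from the mean of each antibody, was 0.002. It left 1 residual degree of freedom and the prior added 14.6. On simulated data with 15745 genes, 200 of them changed, a log2 change of 1 was recovered for 98.8% of genes and a log2 change of 2 for 100%. Of the simulated calls 16.9% were unchanged genes, a share above the threshold on adjusted p. Most calls among the 73 were smaller than a log2 change of 1, and for such changes recovery was not tested. The data had 6106 genes called higher and 1822 lower, many more than were changed in the simulation. Neither rate can therefore be carried over to the calls reported. Replicates were compared before averaging: their chi-square divided by its degrees of freedom was 20.2 for Cpeb4 and 4.28 for IgG, and they were kept as separate samples.

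Named genes were, for each role, up to 3 called higher and 3 lower with the smallest p, every called member past 2-fold, and up to 5 in each direction of the other genes; the remaining called members and all uncalled ones were named after their values were seen. Members, roles and lists were chosen with earlier results of these data known. Of the 73, 34 overlap another annotated gene (RefSeq, GRCm38.p6), where reads without strand cannot be assigned. Leaving out a library was fitted without the block. Limma-voom used the recovered reads of 15633 genes. Sequences of 3′ untranslated regions were not analysed here. Counts cover all 73 transcripts, of which 3 are not reported here by name.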

Additional observations from a re-analysis of the deposited data

How the results depend on the processing

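The limits are those of 2 libraries per antibody and of a scaling between libraries that sets the split of higher against lower calls. The counts of the 73 (27 higher, 4 lower) and of the 85 other cilium and centrosome genes (36 higher, 4 lower) became 10, 32, 14 and 36 with libraries scaled to read totals, 16, 16, 26 and 15 both with trimmed mean of M-values over the genes tested and with centring on the median, and 13, 21, 17 and 19 after removing a length and level trend. With no filter on low values they were 14, 1, 23 and 1, and limma-voom gave 10 lower among the other genes. The median log2 fold change of the 73 was -0.25 with read totals, -0.02 with trimmed means over the genes tested or median centring, 0.22 with trimmed means over every gene with reads (chosen after seeing the data) and -0.06 with the trend removed, against -0.24, -0.01, 0.00, 0.21 and -0.04 over all genes tested. Leaving out 1 library gave 13 to 33 higher and 1 to 10 lower among the 73, 22 to 37 and 1 to 11 among the other genes, and a median of 0.14 to 0.20. The other counts stayed within 1.5 times: with a pseudocount of 0.1 the 73 had 27 higher and 3 lower, with limma-voom 30 and 6, 21 and 4 in the authors' deposited table, and with trimmed means over every gene with reads 31 and 4. Without the replicate block they had 29 higher and 4 lower and the other genes 36 and 4, and none of the 40 called genes followed one by one lost its call.

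Signs turned for these genes. With read totals the log2 fold change was -0.06 for Bbs7, -0.07 for Ift57, -0.11 for Ift46, -0.17 for Bbs1, -0.01 for Cep57l1 and Cep78, -0.05 for Cep70, -0.20 for B9d1, -0.15 for Bbs5, -0.12 for Ift88, -0.38 for Bbs2, -0.31 for Cep290 and -0.45 for Ift27. With trimmed means over the genes tested and with median centring it was -0.12 and -0.12 for Bbs2, -0.11 and -0.10 for Cep290 and -0.18 and -0.17 for Ift27. With the trend on length and level removed it was -0.21 for Bbs1, -0.03 for Ift46, -0.05 for Pcm1, -0.20 for Bbs2, -0.16 for Cep290 and -0.08 for Ift27. Leaving out 1 library put Ift27 between -0.03 (without Cpeb4 replicate 1 or IgG replicate 2) and 0.13. The causes were not tested.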
